A study of Mus musculus with 4 samples.

Results

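The scavenger receptors are surface and lysosomal proteins that bind modified lipoproteins, bacteria, particles and dying cells. The genes considered were Marco, Msr1, Stab1, Scarb1, Scarb2, Cd68, Colec12, Olr1 and Scarf1, 9 in all, and their probes were found by matching the RefSeq accession of each spot to a gene symbol. Of the 9, 8 were matched, through 10 probes, among 32496 genes or unnamed probe targets on the array. Cd68, a lysosomal glycoprotein of macrophages, had no probe matched in this way and was not analysed here.

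Dendritic cells were grown from bone marrow of C57BL/6 mice, labelled female and 8 weeks old, in 6 days with 20 ng/mL of GM-CSF, and CD11c+ cells were taken. Control cells were Rbpj fl/fl (RFF), with loxP sites around both Rbpj alleles and no cre. The Rbpj-deficient cells were Rbpj fl/fl with CD11c-cre (RFF11), in which the cre runs from the promoter of CD11c (Itgax) and acts only once a cell has switched that gene on. Each genotype had 2 arrays and RNA pooled from 4 mice, and nothing states that its 2 arrays came from separate pools, so p-values measure only the spread between arrays, which may be technical. No array with the cre and intact Rbpj was analysed here, so the loss of Rbpj and the presence of the cre cannot be told apart. The number of arrays limits the precision.

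Scavenger receptors were defined by what they bind and not by descent, and they fall into classes of unrelated structure. Class A (Marco, Msr1, Colec12) are trimers with a collagen-like stalk, and Marco and Msr1 carry a cysteine-rich head at its end. Class B (Scarb1, Scarb2, and Cd36) cross the membrane at both ends of the protein. In dendritic cells and macrophages these proteins feed material into endosomes for breakdown or antigen presentation, and Marco is best known from macrophages that meet bacteria and dust. RBPJ is the DNA-binding protein of the Notch pathway, a repressor of its targets until a cleaved Notch receptor joins it.

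Levels are given as log2 of the spot signal relative to the 75th percentile of all gene spots on the same array. A level compares the same probe between arrays and says nothing about one probe against another. On the 4 arrays, 55.2% to 58.4% of the gene spots were well above background. Across the 17973 genes tested, the correlation of log2 levels was 0.997 and 0.998 between arrays of a group and 0.993 to 0.994 between groups. The targeted gene was lower in the samples labelled deficient. Rbpj read 2.69 and 2.61 in control and 1.37 and 1.44 in Rbpj-deficient cells, so that 42.1% of the control signal remained (limma adjusted p = 0.0278). Itgax, the marker used to take the cells, was bright in both groups at 6.66 ± 0.04 and 6.55 ± 0.14 (SD, n = 2).

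Marco rose 2.45-fold in Rbpj-deficient cells, while the other 6 that could be tested differed from control by at most 0.33 on the log2 scale and did not pass the test. In all, 1 of the 7 receptors tested was called at a limma adjusted p under 0.05, and it was higher, where 1.88% of the genes tested were called, 1.04% as higher and 0.84% as lower. The 7 were well above background on all 4 arrays. Scarf1, an endothelial receptor for modified lipoprotein, was well above background on 0 of the 4 and has no level here.

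Marco, the macrophage receptor with collagenous structure, binds bacteria and uncoated particles. Its 1 probe had processed signals of 2491 and 2426 in control and 6565 and 5903 in Rbpj-deficient cells. In relative log2 levels these were 0.86 and 0.77 against 2.19 and 2.03. Both Rbpj-deficient arrays lay above both control arrays, and the distance between the groups was many times the distance between arrays of a group. The log2 change was 1.29 (SE 0.08, limma adjusted p = 0.0322), with a 95% interval of 1.06 to 1.52. Of the 17973 genes, 99 had a log2 change at least that high, Marco among them, and 48 of those 99 were called. In these bulk samples, more Marco RNA per cell and more cells that carry it cannot be told apart.

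**Figure D1:**
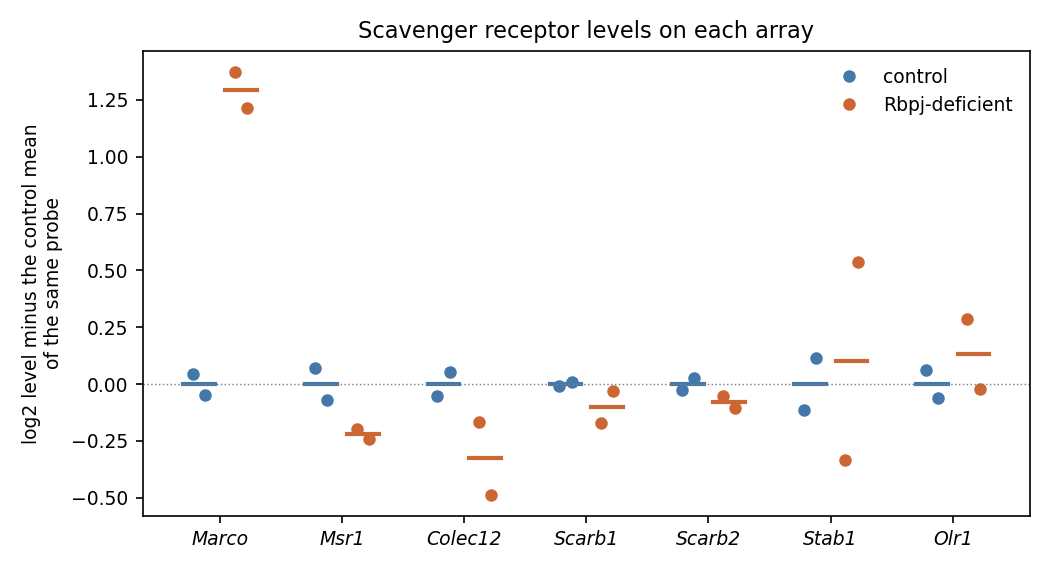
Levels of the 7 receptors measured above background, one point per array (control blue, Rbpj-deficient orange) with short lines at the mean of each group; the vertical axis is the log2 level minus the control mean of the same probe. The Rbpj-deficient points of Marco lie 1.21 and 1.37 above its control mean, while the points of the other genes lie between -0.49 and 0.54.

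The call for Marco rested on both arrays of each group. Its log2 change stayed between 1.21 and 1.37 when 1 array was left out, but the adjusted p from limma was then 0.120 and 0.122 when control replicates 1 and 2 were left out in turn, and 0.125 and 0.144 when Rbpj-deficient replicates 1 and 2 were. The call was also lost when dim probes were kept, at an adjusted p of 0.260 over 32494 genes, with the change itself at the same 1.29.

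The stretch upstream of the Marco start is shown because RBPJ acts by binding DNA, beside that of Scarb2, whose RNA differed little. Both are the 250 bases before the start in RefSeq annotation of GRCm38.p6, written 5′ to 3′ along the gene. Marco is at chr1:120505025-120505274 and Scarb2 at chr5:92505658-92505907, both on the minus strand. Capitals mark the letters TGGGAA, the core of the RBPJ recognition sequence, or their reverse complement TTCCCA.
Marco: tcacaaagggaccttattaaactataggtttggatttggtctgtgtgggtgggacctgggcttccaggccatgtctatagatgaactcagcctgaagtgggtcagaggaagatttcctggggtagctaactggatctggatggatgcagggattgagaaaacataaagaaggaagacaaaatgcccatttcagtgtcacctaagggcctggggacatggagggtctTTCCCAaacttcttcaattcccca
Scarb2: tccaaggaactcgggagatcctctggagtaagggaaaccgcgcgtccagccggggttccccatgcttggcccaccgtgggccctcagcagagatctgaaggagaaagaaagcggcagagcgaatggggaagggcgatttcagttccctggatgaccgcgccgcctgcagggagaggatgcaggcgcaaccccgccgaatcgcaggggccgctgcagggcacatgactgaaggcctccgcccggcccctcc
The Marco window held 1 match, on the reverse strand, 24 to 19 bases before the start. The window of Cd68, whose RNA was not analysed, also held 1 match, 214 to 209 bases before its start. The windows of Scarb2, Stab1 and Olr1 held 0 matches, as read on both strands. Msr1, Scarb1, Colec12 and Scarf1 had no window in the table. Of 32851 promoter windows of this length in the table, 21.6% held the same letters on either strand. The longer form GTGGGAA, which contains the first, was in 5.42% of windows and not in that of Marco. A match of letters is a description and no binding was measured.

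The other class A receptors lay lower rather than higher. Msr1, the macrophage scavenger receptor that takes up oxidised lipoprotein, read 1.50 and 1.36 in control and 1.23 and 1.19 in Rbpj-deficient cells on the brighter of its 2 probes. Both Rbpj-deficient arrays were below both control arrays, by a narrow margin. The log2 change was -0.22 (SE 0.07, limma adjusted p = 0.187), with a 95% interval of -0.42 to -0.02. The second Msr1 probe, at 0.47 and 0.62 against 0.36 and 0.35, differed by -0.19, also without overlap. Colec12, a collectin-like receptor known from endothelium and stroma, was dim, with signals of 62.1 and 69.5 against 60.3 and 48.6, beside a median local background of 26.5 to 29.0. Its log2 levels were -4.46 and -4.36 in control and -4.58 and -4.90 in Rbpj-deficient cells. The groups did not overlap, but the Rbpj-deficient arrays differed from each other nearly as much as the group means did. The change was -0.33 (SE 0.13, limma adjusted p = 0.233, interval -0.68 to 0.03), and -0.13 with another background correction (normexp).

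The class B receptors were close to their control levels. Scarb1, the receptor that exchanges cholesterol with high-density lipoprotein, read 2.15 and 2.16 in control and 1.98 and 2.12 in Rbpj-deficient cells on the brighter of 2 probes. The groups did not overlap, with Rbpj-deficient replicate 2 just under the controls. The change was -0.10 (SE 0.07, limma adjusted p = 0.449, interval -0.30 to 0.10). On the dimmer probe the groups overlapped, at -0.02 and -0.18 against -0.18 and -0.02. Scarb2, the lysosomal membrane protein LIMP-2 that carries glucocerebrosidase to lysosomes, read 1.67 and 1.72 against 1.64 and 1.59, a change of -0.08 (SE 0.06, limma adjusted p = 0.465). Its interval of -0.24 to 0.08 was the narrowest among the receptors.

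Stab1 and Olr1 overlapped between the groups. Stab1, or stabilin-1, a clearance receptor of sinusoidal endothelium and some macrophages, read -1.32 and -1.09 in control and -1.54 and -0.66 in Rbpj-deficient cells. The Rbpj-deficient arrays lay on either side of the controls, with signals of 496 and 914. Its change was 0.10 (SE 0.32, limma adjusted p = 0.869), with an interval of -0.79 to 0.99. It was 0.54 when Rbpj-deficient replicate 1 was left out and -0.33 when replicate 2 was. Olr1, the lectin-like receptor LOX-1 for oxidised low-density lipoprotein, read -0.90 and -1.03 against -0.68 and -0.99. Rbpj-deficient replicate 1 was the highest of the 4 arrays and replicate 2 lay between the controls. The change was 0.13 (SE 0.13, limma adjusted p = 0.575, interval -0.22 to 0.48).

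Of the 7 receptors, 5 had groups that did not overlap, Marco above control and Msr1, Colec12, Scarb1 and Scarb2 below it. This share carries little, since 59.1% of all genes tested did not overlap between the groups, 26.8% above control and 32.3% below it. The median change of the 7 was -0.08, beside -0.01 over all genes.

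**Figure D2:**
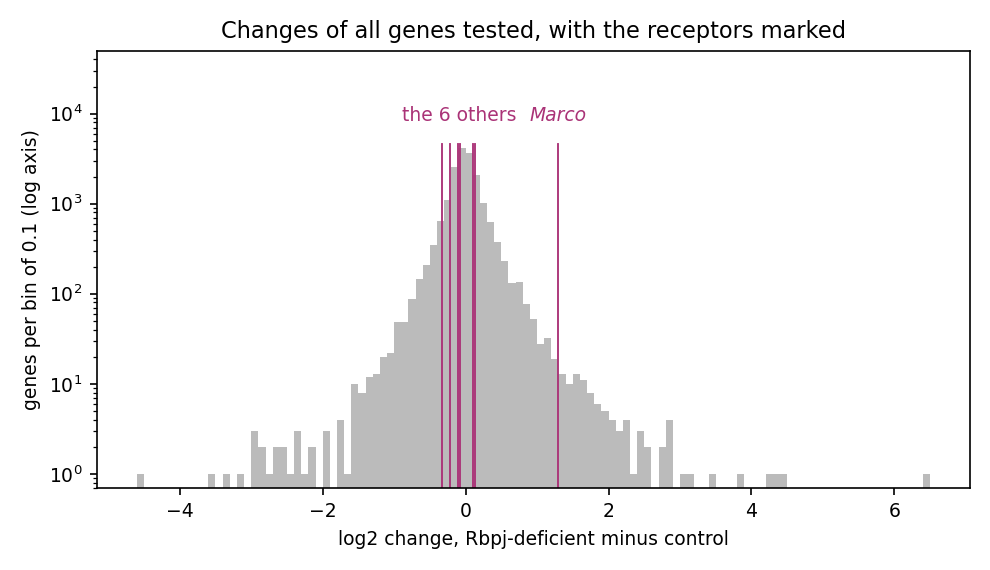
Histogram of the log2 change (Rbpj-deficient minus control) of the 17973 genes tested, in bins of 0.1 with a logarithmic vertical axis, and a vertical line at each of the 7 receptors. The line of Marco stands in the upper tail at 1.29 and the other 6 lie between -0.33 and 0.13, within the bulk of genes.

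Setting Marco against each other receptor within an array removes the scaling between arrays. Marco minus Msr1 was -0.64 and -0.59 in control and 0.96 and 0.84 in Rbpj-deficient cells, a shift of 1.51. The 2 control values lay within 0.05 of each other and the 2 Rbpj-deficient values within 0.12. The shift was 1.62 against Colec12, 1.39 against Scarb1, 1.37 against Scarb2, 1.16 against Olr1 and 1.19 against Stab1. These 6 differences share the same Marco levels and are not separate results. The groups did not overlap in any of them. The narrowest distance between the groups, 0.51, was for Stab1, where the Rbpj-deficient values lay 1.03 apart. An exact two-sided permutation test gave p = 0.333 for each, which is the smallest p that 2 arrays against 2 allow, so that this design cannot bring such a test under 0.05.

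None of the further scavenger receptors, taken from the other members of the standard classes and their cysteine-rich relatives, passed the test. Of 18 such genes 17 were matched and 9 were well above background on both arrays of a group. In limma 0 of the 9 passed in either direction, beside 1.88% of all genes. Of the 9, 4 had an unadjusted p under 0.05, where 24.1% of all genes did. Below 0 lay 7, beside 52.7% of all genes, and the median of the 9 was -0.22. Stab2, counted in that 4 and that 7, was dim, at -5.33 and -5.34 in control and -5.70 and -5.49 in Rbpj-deficient cells. Its change was -0.26 as reported and -0.07 with normexp. Stab2 and Ssc5d were not well above background on all 4 arrays. Scara3, Scara5, Asgr1, Megf10, Cd163, Cd163l1, Ager and Lrp2 were not above background. Cd36, the class B receptor for oxidised lipids and fatty acids, was farthest from 0. It read 2.27 and 2.13 in control and 1.55 and 1.45 in Rbpj-deficient cells, a change of -0.70 (SE 0.08, limma adjusted p = 0.0502). That p lies at the threshold. Cd36 was called under 4 of 13 alternatives. The limma adjusted p was 0.0396 with median scaling and 0.0165 with normexp. It was 0.0407 when only genes above background on all 4 arrays were tested and 0.00736 with a trended, robust variance prior. Under the other 9, which include leaving out any 1 array, Cd36 was not called. Its limma adjusted p was 0.0563 with quantile normalization, 0.0521 with the deposited log2 values and 0.286 without the filter on dim probes. Mrc1, the mannose receptor, read 4.46 and 4.58 against 4.10 and 4.01, a change of -0.47 (limma adjusted p = 0.0679). Cd5l, a secreted protein of the cysteine-rich family, read -0.02 and -0.25 against -0.57 and -0.96, a change of -0.63 (limma adjusted p = 0.138). For Cd36, Mrc1 and Cd5l the Rbpj-deficient arrays lay below the controls without overlap.

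**Figure D3:**
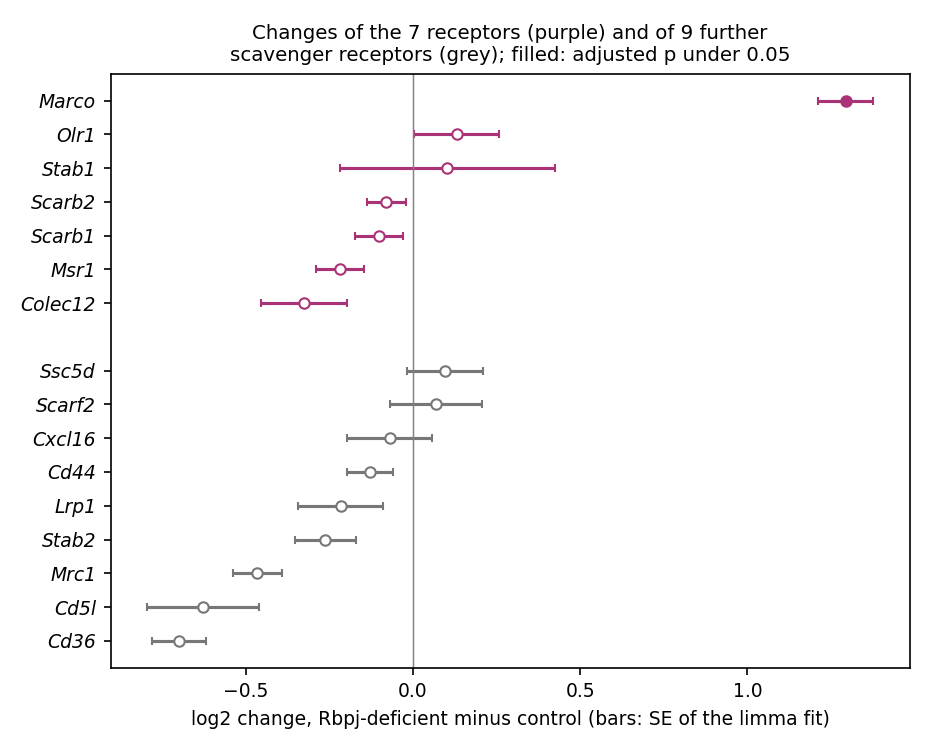
Log2 change (Rbpj-deficient minus control) with its SE from the limma fit for the 7 receptors (purple, upper block) and for 9 further scavenger receptors (grey, lower block); a filled point has an adjusted p under 0.05. Marco at 1.29 is the filled point, and Cd36 at -0.70 lies farthest below 0.

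Genes of the compartments that these receptors serve were also read. Of 21 lysosomal genes, the setting of Scarb2, none passed in limma, beside 1.88% of all genes. An unadjusted p under 0.05 was found for 8, where 24.1% of all genes had one. Below 0 lay 19, where 52.7% of all genes did. The median of the list was -0.13, and Npc2, which moves cholesterol out of lysosomes, was farthest from 0 at -0.36 (limma adjusted p = 0.0813). With normexp and with the trended, robust prior 3 of these genes were called lower. Both settings also called more of all genes tested, normexp 514 of 17973 as lower against 151 as reported. Of 15 partners in lipoprotein uptake and cholesterol export 13 were tested. In limma 0 passed, beside 1.88% of all genes, and 6 had an unadjusted p under 0.05, where 24.1% of all genes did. Of the 13, 11 lay below 0, beside 52.7% of all genes, and the median was -0.24. Lipoprotein lipase, Lpl, was farthest from 0 at -0.71 (limma adjusted p = 0.0532). Lpl was called lower under 4 of 13 alternatives. These were median scaling (limma adjusted p = 0.0364), the filter on all 4 arrays (limma adjusted p = 0.0434), normexp and the trended, robust prior. Under the other 9, which include leaving out any 1 array, Lpl was not called. Its limma adjusted p was 0.0683 with quantile normalization, 0.0538 with the deposited log2 values and 0.292 without the filter on dim probes. With normexp and with the trended, robust prior 5 genes of the list were called lower. Both called more of all genes, normexp 514 of 17973 as lower.

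Of 13 macrophage markers 11 were tested. The Fc receptor Fcgr1 fell by 0.61 (limma adjusted p = 0.0424) and the lipid-sensing receptor Trem2 fell by 0.53 (limma adjusted p = 0.0445). These 2 of the 11 were called lower, where 0.84% of all genes were. An unadjusted p under 0.05 was found for 4, where 24.1% of all genes had one. Of the 11, 8 lay below 0, beside 52.7% of all genes, and 3 above it. The highest was Adgre1, the F4/80 antigen, which read 3.93 and 3.90 in control and 4.29 and 4.22 in Rbpj-deficient cells, a change of 0.34 without overlap that did not pass (limma adjusted p = 0.0766). With normexp and with the trended, robust prior 1 marker was called higher. Over all 17973 genes, normexp called 537 higher, against 187 as reported. The summed log2 level of the list was 8.45 to 8.52 in control and 8.38 to 8.41 in Rbpj-deficient cells, and the brightest probes weigh most in such a sum. Vsig4 and Timd4, markers of tissue macrophages, were not above background. Of 10 neutrophil and precursor markers 8 were tested. Myeloperoxidase, Mpo, rose by 0.74 (limma adjusted p = 0.0378) and the granule protein Ngp rose by 0.54 (limma adjusted p = 0.0445). Mpo was dim, at -3.90 and -3.97 in control and -3.21 and -3.17 in Rbpj-deficient cells. With normexp the change was smaller, 0.48 for Mpo and 0.42 for Ngp. Of the 8, 7 had an unadjusted p under 0.05, where 24.1% of all genes did. Those 7 lay above control without overlap, where 26.8% of all genes did. The alarmin subunit S100a9 had the highest change, 0.85 (limma adjusted p = 0.0813). The neutrophil elastase gene Elane lay the other way, at 0.41 and 0.47 against 0.26 and 0.34, a change of -0.14 without overlap that did not pass (limma adjusted p = 0.264). The count called higher was 7 with normexp and with the trended, robust prior, against 2 as reported, where 1.04% of all genes were called higher. That share is of the reported fit, and both settings also called more of all genes, normexp 537 of 17973 as higher. The summed level of the 8 was 4.46 to 4.66 in control and 5.20 to 5.51 in Rbpj-deficient cells, and Retnlg was not above background. The part of these cells in the Marco result was not tested. Fcgr1, Trem2, Mpo and Ngp lost their calls without the filter on dim probes, under the replicate block and without any 1 array. Trem2 also lost it with quantile normalization (limma adjusted p = 0.0504) and Ngp with median scaling (limma adjusted p = 0.0580).

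Endothelial and stromal cells, the usual home of Colec12, Scarf1 and Stab1, had few markers above background. Of 7 endothelial markers Cdh5, Tek, Emcn and Lyve1 were not above background. Of the 3 tested 0 passed, beside 1.88% of all genes, and 0 had an unadjusted p under 0.05, where 24.1% did. Pecam1 was farthest from 0 at 0.45 (limma adjusted p = 0.238), and Kdr and Vwf were below 0 at -0.13 and -0.23. Kdr and Vwf were not dim, with control means of 2.17 and 3.54. Of 6 fibroblast markers Col1a1, Col3a1, Lum and Pdgfra were not above background. Of the 2 tested 0 passed, beside 1.88% of all genes, and 0 had an unadjusted p under 0.05, where 24.1% did. Col1a2 was at -0.53 (limma adjusted p = 0.437) and Dcn at 0.43 (limma adjusted p = 0.583). Of 9 dendritic cell markers 8 were tested and none passed, beside 1.88% of all genes. An unadjusted p under 0.05 was found for 3, where 24.1% of all genes had one. The migration receptor Ccr7 was farthest from 0 at -0.48 (limma adjusted p = 0.0931). The other 2 of those 3 lay above control, the cytokine receptor Flt3 at 0.38 (limma adjusted p = 0.0640) and the kynurenine enzyme Kmo at 0.41 (limma adjusted p = 0.109). Of the 8 markers 5 lay below 0, beside 52.7% of all genes, and 3 above it. The summed level of the dendritic cell list was 9.69 to 9.74 in control and 9.56 to 9.65 in Rbpj-deficient cells.

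The genes whose pattern over the 4 arrays was most like that of Marco were sought among 12289 named genes above background on all 4 arrays, by the Euclidean distance between log2 levels centred on each gene's mean. Afap1l2, an actin-associated adaptor, was nearest at a distance of 0.09, with -1.46 and -1.60 in control and -0.25 and -0.39 in Rbpj-deficient cells. Gfi1, a transcriptional repressor of blood precursors, followed at 0.09, from -4.27 and -4.33 to -2.81 and -3.06. Gfi1 was dim, and with normexp its change was 0.79 against 1.36 as reported, while that of Marco was 1.31, so that its likeness to Marco depends on the background correction. Il1b, the interleukin-1 beta precursor, came next at 0.13. As all 4 arrays are shared and the distance follows the difference between genotypes, likeness here means a change of like size.

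**Figure D4:**
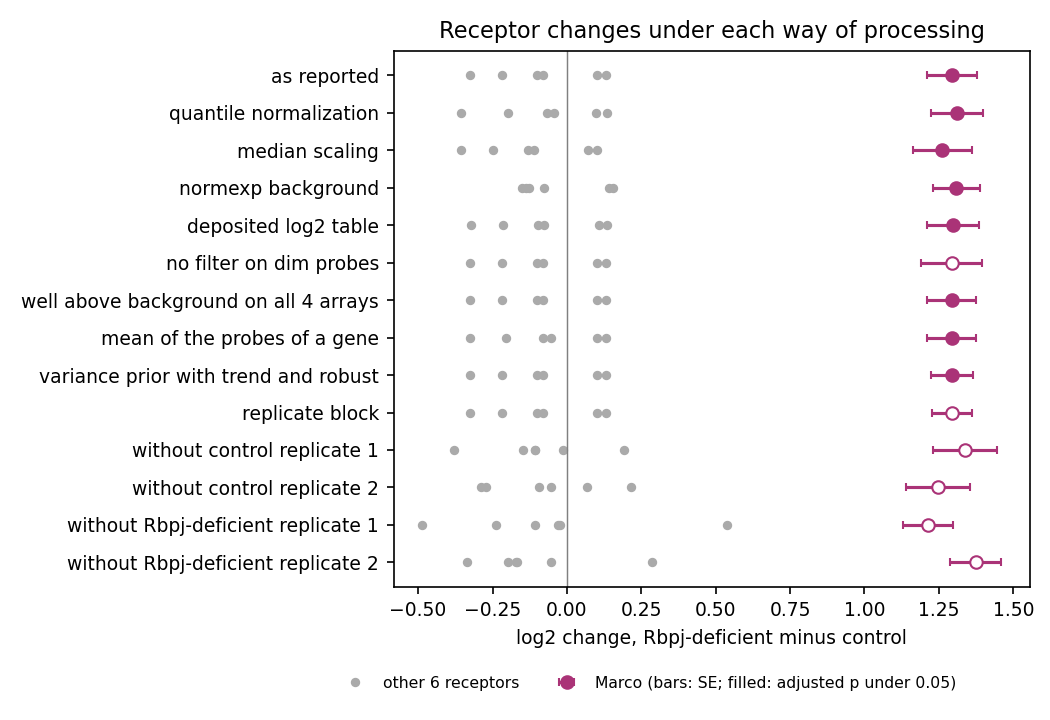
Log2 change of Marco (purple, with SE; filled where the adjusted p was under 0.05) and of the other 6 receptors (grey) under the reported processing and 13 alternatives. Marco stays between 1.21 and 1.37 throughout and the grey points between -0.49 and 0.54, while the points of Marco are open for 6 alternatives.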

How the data were processed

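RNA of 2 control and 2 Rbpj-deficient samples, 150 ng each, was labelled with Cy3 and measured on one-colour Agilent mouse arrays, per the labels' protocols. Spot intensity was read by Agilent Feature Extraction 10.7.1.1, per the file headers and the submitters' processing notes, and the deposited processed intensity is not scaled between arrays. How the authors made the deposited table of log2 values is not given in the sources used here. It followed the scanner signal, scaled per array and centred per probe, with r from 0.99995 to 0.99996 and column medians of 0.05, -0.03, -0.03 and 0.02.

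The 75th percentile of log2 signal over gene spots was subtracted on each array, and 127 to 176 outlier spots per array were left out (0 were saturated). A probe was tested if both arrays of at least 1 genotype had it well above background, and the brightest probe stood for a gene. limma 3.58.1 (R 4.3.3) compared the genotypes, and p-values were adjusted by Benjamini-Hochberg over all 17973 genes, with a threshold of 0.05. Intervals are 95% intervals of the moderated fit, not adjusted for multiple tests, and SE values are from the same fit. Python 3.11.15 did the rest. The procedure was tested on simulated data.

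Names came from RefSeq annotation of GRCm38.p6 (the array annotation is on mm9, per the file headers). Of 39429 probes 26049 received 1 symbol, 0 several and 13380 none. Clec7a, Zbtb46 and Ly6g were not matched. The members, lists and rules were chosen with earlier results of these data known. Named genes were the members, Rbpj, Itgax, called members of each list (at most 3 in each direction) or else the one farthest from 0, and the 3 genes most like Marco. Outside that rule lie the further scavenger receptors other than Cd36, and also Adgre1, S100a9, Elane, Flt3, Kmo, Kdr, Vwf, Dcn and Nfe2l2. All arrays lay on 1 slide. The normexp alternative used the median spot signal in place of the mean that had been planned. Columns of other samples numbered 0.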

Additional observations from a re-analysis of the deposited data

How the results depend on the processing

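Marco kept its direction under all 13 alternatives and its call under 7 of them: quantile and median scaling, normexp, the deposited table, the filter on all 4 arrays, the mean of probes and the trended, robust variance prior. It lost the call without a filter on dim probes (1.29, adjusted p = 0.260), under the replicate block (1.29, adjusted p = 0.0865) and without any 1 array (1.21 to 1.37, adjusted p = 0.120 to 0.144). Rbpj did the same, at -1.25 without the filter and under the replicate block, and -1.29 to -1.21 without 1 array. The count of receptors called was then 0 in each case, against 1. With 1 array left out, the lone array of a group is assumed to vary like the other group, and fewer arrays estimate the spread.

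In limma 338 genes were called as reported, 55.3% of them higher, 1051 with normexp, 1547 with the trended, robust prior (44.9% higher), 0 without the filter (3654 at an unadjusted p under 0.05), 0 under the replicate block (3677) and 0 to 1 without 1 array (2976 to 3506). The replicate numbers share only a number: deviations of same-numbered arrays correlated at -0.05 across genes. Stab1 was 0.10 as reported and -0.33 to 0.54 without 1 array, and Olr1 was 0.13 and -0.0229 to 0.28. Without 1 array, Scarf2 was -0.0889 to 0.23, Cxcl16 -0.20 to 0.0650, Ssc5d -0.0390 to 0.23 and Nfe2l2 -0.23 to 0.0508. Cd44 was 0.13 with the mean of its probes. The other 27 genes whose alternatives were computed kept their sign under each alternative that gave a value; Stab2 had none under the filter on all 4 arrays. Cd36, Mrc1, Npc2, Lpl, Tgm2, Osgin1, Ccr7 and S100a9, not called as reported, were called with normexp and with the trended, robust prior, and Osgin1 also with median scaling. Signal over background limits dim probes such as that of Colec12, at -0.33 as reported and -0.13 with normexp.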

Other observations

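Genes for the uptake of dying cells, which share cargo with scavenger receptors, did not pass in limma, where 1.88% of all genes did. Of 20 such genes 17 were tested, and 6 had an unadjusted p under 0.05, where 24.1% of all genes did. Of the 17, 11 lay below 0, beside 52.7% of all genes, and the median of the 17 was -0.10. The transglutaminase Tgm2, a partner of integrins in the uptake of apoptotic cells, was farthest from 0 at 1.07 (SE 0.16, adjusted p = 0.0640). The summed log2 level of the list was 9.21 to 9.23 in control and 9.24 to 9.35 in Rbpj-deficient cells.

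Of 12 genes of the oxidative stress pathway of Nfe2l2 (NRF2), known to act on Marco in macrophages, none passed in limma, beside 1.88% of all genes. An unadjusted p under 0.05 was found for 3, where 24.1% of all genes had one. Of the 12, 7 lay below 0, beside 52.7% of all genes, and the median of the 12 was -0.05. Osgin1 was farthest from 0 at 0.73 (SE 0.10, adjusted p = 0.0627), and Nfe2l2 itself differed by -0.09 (adjusted p = 0.663). The summed level of the list was 6.71 to 6.76 in control and 6.66 to 6.68 in Rbpj-deficient cells.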
